A study of Mus musculus with 30 samples.

Results

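The 40 genes described here encode the proteins that copy DNA in S phase, and they were read in tumours treated with interleukin-12 drugs. They were chosen by symbol, and all 40 were present among 24552 gene entries of the count table and among the 15482 genes that passed the low-count filter. The tumours were grown from MC38, a mouse colon carcinoma line, by injecting cells under the skin of the right flank of female C57BL/6J mice 10 weeks old. Treatment began at a tumour volume of 200 to 300.0 mm3. Each mouse received a single intravenous injection of mXTX301, a masked mouse surrogate of interleukin-12, at 0.39 mg/kg, or vehicle, or a positive control that carries no mask (the unmasked control), dosed at 0.03 mg/kg. Tumours were taken 4 or 7 days later, with 5 mice in each of the 6 groups and 1 library of polyadenylated RNA from each mouse. Interleukin-12 is a cytokine that activates T cells and natural killer (NK) cells. The drugs were given at different doses, so they are set side by side as given and not at matched dose. The whole tumour was sequenced, so fewer cells of a type and less RNA per cell cannot be told apart.

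DNA is copied once per cell cycle in a fixed order of steps. In G1 phase the loaders Cdc6 and Cdt1 place a ring of 6 Mcm proteins on each origin, which licenses it. In S phase the kinase Cdc7 with its partner Dbf4, together with Cdc45 and the GINS complex, turn the ring into a working helicase, after which polymerases, the sliding clamp, its loader and the ligase make the new strands. Ribonucleotide reductase and thymidylate synthase supply the building blocks, cyclin E drives entry into S phase, and E2F1 is a transcription factor that switches on many genes of this set.

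Libraries held between 48.3 M and 85.2 M counts (M for mega), and the 40 genes together took 0.404% to 0.624% of them. The smallest count of any member in any library was 1066, so counting error was small beside the spread between mice. Levels are given as CPM, counts scaled to a common library size with TMM factors, and the within-group coefficient of variation had a median of 7.99% over the members, from 6.47% for Mcm5 to 17.7% for Ccne2. The tumour line carried little of the usual colon epithelial programme in these libraries, since 11 of 12 epithelial markers had a median under 1 CPM and Cdx2 was 0 in all 30 libraries. Some libraries stood apart. Of the vehicle libraries at day 4, replicate 5 had the highest level of its group in 20 members and the lowest in 11. Its TMM factor, 0.916, was the lowest of the 30 libraries. Before that scaling the members took 0.552% of its counts, the lowest share of its group, so its high levels depend in part on the scaling. In mXTX301 day 4 replicate 1 was highest in 32 members, and in the unmasked control at day 7 replicate 1 was highest in 29. Skin genes were high in 12 libraries, spread over all 6 groups, and none of 15 skin genes tested was called in any drug comparison. In 11 members some exon bases of the annotation are shared with a coding gene on the other strand, from 1.60% in Tk1 to 67.3% in Gins2, and the strand used in counting is not given in the sources used here, so their levels are less certain.

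Replication genes fell against same-day vehicle tumours after both drugs, and none rose. A gene was called when its adjusted p in the edgeR quasi-likelihood test, corrected over all 15482 genes, was under 0.05. With mXTX301, 24 of 40 members fell at day 4, where 16% of all genes tested were called lower. At day 7 of mXTX301, 31 members fell, against 22.7% of all genes. The unmasked control lowered 11 members at day 4, where 10.8% of all genes were called lower, and 31 at day 7, where the share of all genes was 21.8%. Among all genes, rises were called in 16.2%, 25.7%, 11.6% and 23.2% in the same order of comparisons. In each of these 4 comparisons edgeR called 0 members higher, 0 were higher at an unadjusted p under 0.05, and DESeq2 called 0 higher.

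The median log2 fold change of the 40 members was -0.23 at day 4 and -0.37 at day 7 of mXTX301, and -0.15 and -0.36 in the unmasked control, while the medians over all tested genes lay between -0.01 and 0.02. No member changed by 1 or more on the log2 scale, and the furthest was Ccne2 at day 7 of mXTX301. All 5 treated libraries lay below all 5 vehicle libraries for 12 members at day 4 of mXTX301 and for 27 at day 7, where 9.33% and 14.2% of all genes did so. The same held for 7 members at day 4 and 27 at day 7 of the unmasked control, against 6.54% and 12.8% of all genes. Leaving out 1 library at a time moved the unmasked control count at day 4 from 11 to 6 without its replicate 5 and to 7 without its replicate 2, where 2884 and 2751 of all genes were called in either direction. Without the 12 libraries with high skin genes, which left 2 unmasked control and 2 vehicle libraries at day 7, 14 members were called in that comparison and 2 in the unmasked control at day 4. In those fits 2415 and 1618 of 15412 genes were called in either direction, so 2 of 40 members is no more than the share of all genes. The unmasked control calls lost there at day 7 included Mcm2, Gins2, Pcna, Rrm2, Tk1, Uhrf1 and Ccne2. With mXTX301, 17 members were called at day 4 and 27 at day 7 without these libraries, where 3530 and 5285 genes were called in either direction.

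**Figure D1:**
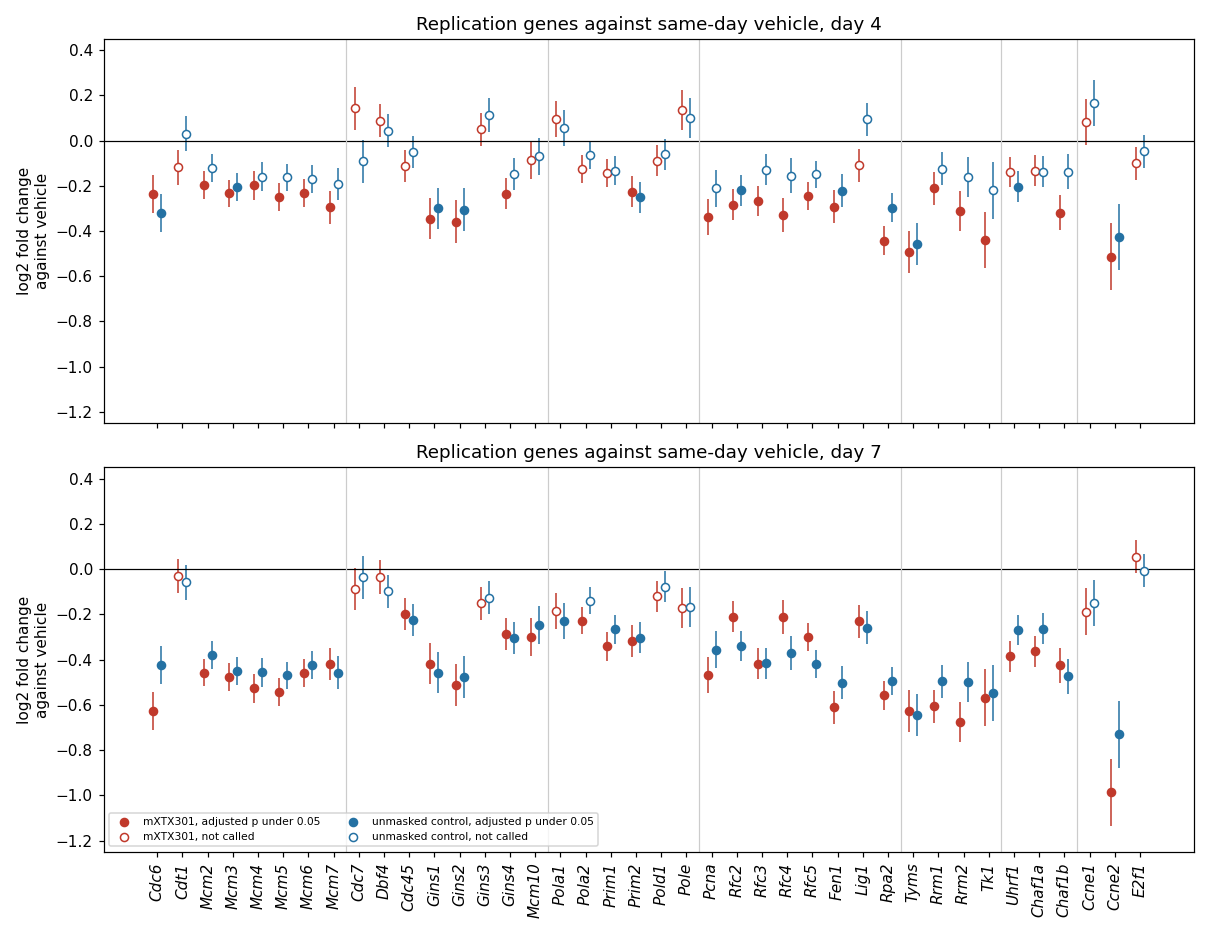
Log2 fold change of each of the 40 genes against same-day vehicle at day 4 (upper panel) and day 7 (lower panel), with bars of 1 standard error, mXTX301 in red and the unmasked control in blue, filled where the edgeR adjusted p was under 0.05. Vertical lines separate the role groups, and at day 7 Ccne2 lies lowest, at -0.99 with mXTX301 and -0.73 with the unmasked control, while Cdt1, Cdc7, Dbf4 and E2f1 lie near 0.

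Promoter sequence was available from RefSeq (GRCm38.p6) for 32 of the 40 genes, as windows from 250 bases before to 50 bases after each start. E2F proteins are known to bind GC-rich words that follow a run of T, and 4 of them were searched on both strands, TTTCCCGC, TTTCGCGC, TTTGCCGC and TTTGGCGC. At least 1 word was found in 12 of the 32 genes (37.5%), against 2.605% of 27025 genes with a window. The median GC content was 61.3% in member windows and 52.7% in all windows. Of the 12 genes with a word, 9 were called lower in at least 1 drug comparison, and of the 20 without one, 16 were. The 250 bases before the start are shown for 3 genes whose word lies there, with the word in capitals, written as its reverse complement where it lies on the other strand. Mcm5 and Mcm6 fell at day 7 with each drug and Pola1 passed in a single comparison, and the word of Pola1 also stands in both Mcm windows.
Mcm5 (chr8:75109259-75109508, plus strand): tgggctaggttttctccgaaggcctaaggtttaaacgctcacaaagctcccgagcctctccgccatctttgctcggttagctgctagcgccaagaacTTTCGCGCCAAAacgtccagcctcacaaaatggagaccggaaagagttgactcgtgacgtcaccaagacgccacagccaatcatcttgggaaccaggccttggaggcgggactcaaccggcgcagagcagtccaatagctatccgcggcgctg
Mcm6 (chr1:128359706-128359955, minus strand): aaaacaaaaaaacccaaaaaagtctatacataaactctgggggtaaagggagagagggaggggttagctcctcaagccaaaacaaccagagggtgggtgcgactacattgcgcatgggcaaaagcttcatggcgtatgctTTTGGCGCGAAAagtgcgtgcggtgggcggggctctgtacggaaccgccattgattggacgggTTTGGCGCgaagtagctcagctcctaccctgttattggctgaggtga
Pola1 (chrX:93632156-93632405, minus strand): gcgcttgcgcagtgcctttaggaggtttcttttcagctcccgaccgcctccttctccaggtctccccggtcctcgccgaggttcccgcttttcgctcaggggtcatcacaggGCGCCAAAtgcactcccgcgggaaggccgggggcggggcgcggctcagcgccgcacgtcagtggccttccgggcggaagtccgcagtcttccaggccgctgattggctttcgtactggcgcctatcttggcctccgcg
In Mcm5 and in Mcm6 words on opposite strands overlap and stand in capitals as a single run. A match is a description of the letters and does not show that a factor was bound.

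Origin licensing genes fell nearly as a block, with Cdt1 as the exception. At day 7, 7 of 8 fell with each drug, and at day 4 7 fell with mXTX301 and 2 with the unmasked control. Mcm5, a subunit of the helicase ring (gene 17218, chr8:75109569-75128439, plus strand of mm10), was at 359, 423, 379, 391 and 367 CPM in vehicle replicates 1 to 5 at day 7. The mXTX301 libraries of that day were at 256, 278, 269.6, 253 and 261 CPM, and those of the unmasked control at 317, 255, 285, 262 and 266 CPM. Both treated groups lay wholly below vehicle. The fall was 0.54 on the log2 scale (SE 0.06, edgeR adjusted p = 1.27e-07) with mXTX301 and 0.47 (SE 0.06, edgeR adjusted p = 1.15e-06) with the unmasked control.

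At day 4 the same gene had already fallen with mXTX301. Vehicle stood at 363, 367, 356, 369 and 376 CPM, a narrow range, and mXTX301 at 335, 287, 292, 311 and 315 CPM, all below it. Mcm5 fell by 0.25 (SE 0.06, edgeR adjusted p = 0.00269). The unmasked control, at 330.4, 329, 368, 318 and 291 CPM, overlapped vehicle through replicate 3 and did not pass, with a log2 fold change of -0.16 (SE 0.06, edgeR adjusted p = 0.0529). Of the 6 ring subunits, Mcm2 to Mcm7, all 6 fell with mXTX301 at day 4, by 0.20 to 0.30 on the log2 scale, and at day 7, by 0.42 to 0.54. With the unmasked control all 6 fell at day 7, by 0.38 to 0.47, and at day 4 Mcm3 passed, by 0.20, a call lost without unmasked control replicate 5, at -0.18 and an edgeR adjusted p of 0.0573. Mcm2 is an example, with group means of 309.8 ± 22.5 CPM in vehicle, 226 ± 14.7 CPM in mXTX301 and 238 ± 17.2 CPM in the unmasked control at day 7 (SD, n = 5). Its call at day 4 of mXTX301 (log2 fold change -0.20, SE 0.06, edgeR adjusted p = 0.0157) was lost without mXTX301 replicate 3, at -0.17 and an edgeR adjusted p of 0.0534, as was that of Mcm4, at -0.17 and 0.0599. Without the 12 libraries with high skin genes the day 4 calls of Mcm2 and Mcm3 with mXTX301 were lost, at -0.14 and -0.21 (edgeR adjusted p = 0.182 and 0.0748). Of the ring subunits, Mcm5 and Mcm7 kept that day 4 call under every alternative tried, and the others did not.

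Of the Mcm loaders, Cdc6 fell and Cdt1 did not pass. Cdc6, an ATPase that recruits the ring to origins (gene 23834, chr11:98907801-98923940, plus strand of mm10), was at 69.6, 65.1, 61.3, 72.2 and 68.6 CPM in vehicle at day 7. It was at 46.2, 44.1, 46.4, 39.4 and 41.9 CPM with mXTX301 and 56.6, 44.8, 54.2, 47.7 and 47.8 CPM with the unmasked control, both below every vehicle library. The falls were 0.63 (SE 0.08, edgeR adjusted p = 1.38e-06) and 0.42 (SE 0.08, edgeR adjusted p = 0.000191). At day 4 Cdc6 was at 65.3, 64.4, 66.3, 77.4 and 52.2 CPM in vehicle, 61.5, 48.7, 58.3, 55.4 and 52.7 CPM in mXTX301 and 55.2, 50.4, 57.1, 51.4 and 46.8 CPM in the unmasked control, with overlap through vehicle replicate 5. Both passed at day 4, at -0.24 (edgeR adjusted p = 0.0303) and -0.32 (edgeR adjusted p = 0.00666). The mXTX301 call at that day was lost without any 1 of vehicle replicates 3 or 4 or mXTX301 replicates 2 or 5, with edgeR adjusted p between 0.0515 and 0.0852. It was also lost without the 12 libraries with high skin genes, at -0.19 and an edgeR adjusted p of 0.150.

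Cdt1, the other loader, which is normally destroyed as protein once S phase begins, did not pass in any drug comparison. It was at 172, 183, 205, 205 and 211 CPM in vehicle, 183, 198, 189, 193 and 191 CPM in mXTX301 and 213, 184, 172, 185 and 183 CPM in the unmasked control at day 7, and the 3 groups overlapped. Its log2 fold changes against vehicle were -0.03 (SE 0.08, edgeR adjusted p = 0.754) and -0.06 (SE 0.08, edgeR adjusted p = 0.556) at day 7. At day 4 they were -0.12 (SE 0.08, edgeR adjusted p = 0.244) and 0.03 (SE 0.08, edgeR adjusted p = 0.798).

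**Figure D2:**
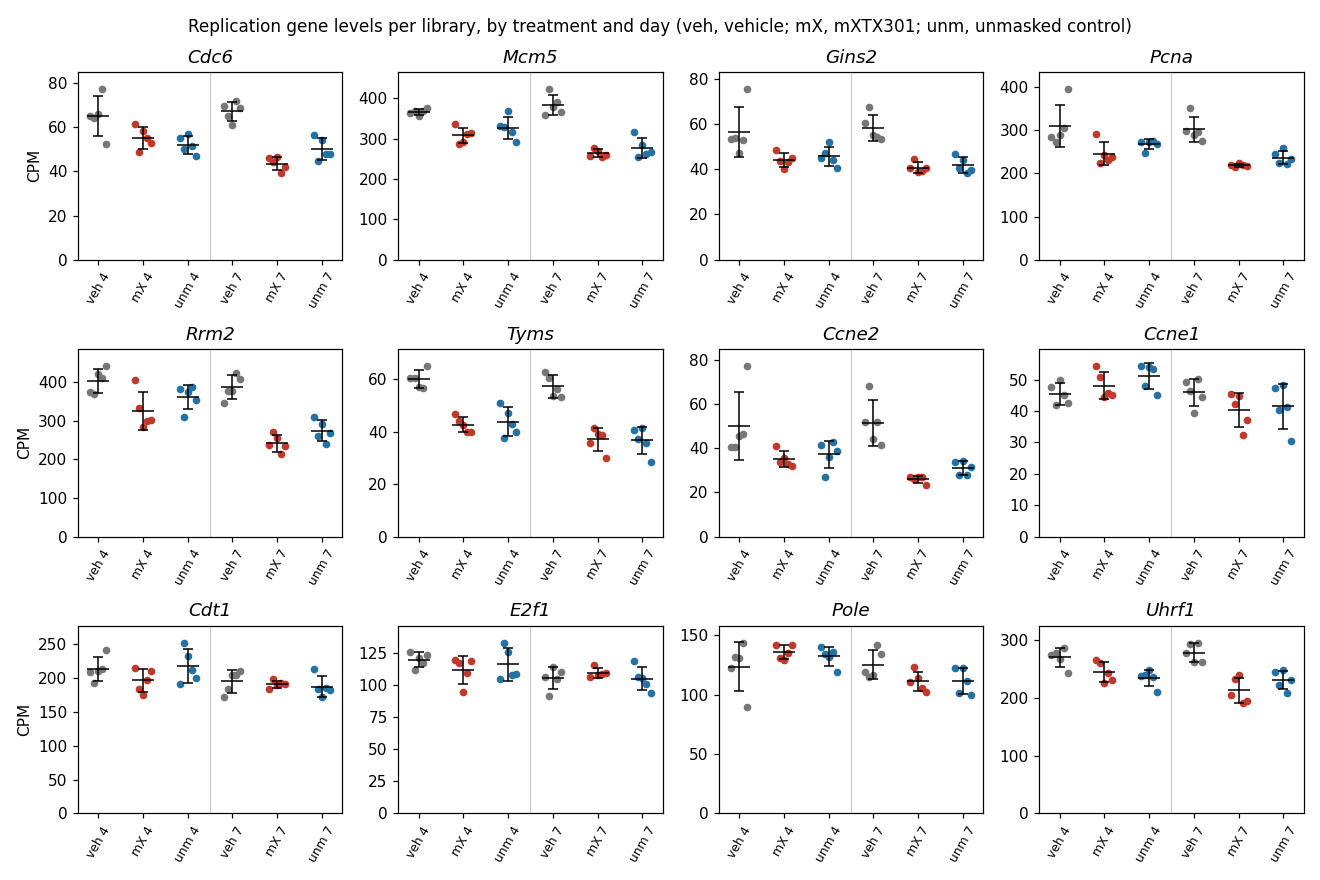
Level of 12 replication genes in CPM in each library (points), with the mean and 1 SD of the 5 libraries (black), by treatment and day, on axes that start at 0. For Cdc6, Mcm5, Gins2, Pcna, Rrm2, Tyms, Ccne2 and Uhrf1 the day 7 drug groups lie below vehicle, while Ccne1, Cdt1, E2f1 and Pole overlap it.

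Among genes of origin firing, the GINS complex fell in 3 of its 4 subunits at day 7. Of 8 firing genes, 3 fell with mXTX301 at day 4 and 5 at day 7, and 2 and 5 with the unmasked control. Gins2, a subunit of the 4-part GINS complex, was at 60.4, 67.4, 55.2, 54.2 and 53.5 CPM in vehicle at day 7 against 40.6, 44.6, 39.0, 39.3 and 40.4 CPM in mXTX301 and 47.0, 40.4, 44.0, 38.3 and 39.5 CPM in the unmasked control. Every treated library was lower than every vehicle library, and the falls were 0.51 (SE 0.09, edgeR adjusted p = 7.45e-05) and 0.48 (SE 0.09, edgeR adjusted p = 0.000187). At day 4 the vehicle libraries were at 53.6, 53.7, 47.0, 52.9 and 75.6 CPM, with replicate 5 far above the others. mXTX301 was at 40.2 to 48.6 CPM and the unmasked control at 40.8 to 51.9 CPM, and both passed, at -0.36 and -0.30. Without vehicle replicate 5 the mXTX301 value was -0.23 (edgeR adjusted p = 0.0256) and the unmasked control call was lost, at -0.18 and an edgeR adjusted p of 0.0977, and it was also lost without unmasked control replicate 5, at -0.27 and 0.0601. Gins2 is the member whose exons are shared at 67.3%, with Gse1, so reads of the 2 genes could be mixed.

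Gins1 and Gins4 fell with Gins2 at day 7, by 0.42 and 0.29 with mXTX301 and by 0.46 and 0.30 with the unmasked control. Gins3, the remaining subunit, did not pass, at -0.15 (SE 0.07, edgeR adjusted p = 0.0914) and -0.13 (SE 0.07, edgeR adjusted p = 0.164). Cdc45, which joins Mcm and GINS in the working helicase, fell by 0.20 (SE 0.07, edgeR adjusted p = 0.023) and 0.23 (SE 0.07, edgeR adjusted p = 0.0111) at day 7. Its libraries overlapped, at 59.6, 73.9, 68.8, 66.5 and 63.4 CPM in vehicle, 58.8, 64.1, 57.8, 52.9 and 56.0 CPM in mXTX301 and 66.9, 51.5, 60.7, 55.1 and 49.9 CPM in the unmasked control. The mXTX301 call was lost without vehicle replicate 2, at -0.17 and an edgeR adjusted p of 0.0641, and without mXTX301 replicate 4, at -0.18 and 0.0561. Mcm10, which helps to start the fork, fell by 0.30 and 0.25 at day 7, and its unmasked control call was lost without unmasked control replicate 2, at -0.21 and an edgeR adjusted p of 0.0609.

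The kinase that fires origins did not pass at either day. Cdc7 ranged over 41.6 to 56.1 CPM in vehicle, 39.1 to 47.3 CPM in mXTX301 and 38.6 to 49.2 CPM in the unmasked control at day 7. Its log2 fold changes at day 7 were -0.09 (SE 0.09, edgeR adjusted p = 0.464) and -0.04 (SE 0.09, edgeR adjusted p = 0.791). Dbf4, its activating partner, was at -0.04 and -0.10 (SE 0.07 and 0.07), with edgeR adjusted p of 0.717 and 0.293.

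Of the 6 polymerase and primase genes, 1 fell at day 4 and 3 at day 7 with mXTX301, and the same numbers with the unmasked control. At day 4 that is near the share of all genes called lower, 16% and 10.8%. Prim2 was the 1 called at day 4, at -0.23 and -0.25. The primase subunits Prim1 and Prim2, which lay the RNA primer, fell at day 7 in both drug comparisons, by 0.34 and 0.32 with mXTX301 and by 0.27 and 0.30 with the unmasked control. Pola1, the catalytic subunit of polymerase alpha, was at 99.95, 101, 114, 119.8 and 106 CPM in vehicle at day 7. It was at 96.1, 105, 91.6, 93.0 and 90.4 CPM in mXTX301 and 107, 81.2, 99.5, 90.5 and 84.6 CPM in the unmasked control, and the groups overlapped. It fell with the unmasked control, by 0.23 (SE 0.08, edgeR adjusted p = 0.0207), and did not pass with mXTX301, at -0.19 (SE 0.08, edgeR adjusted p = 0.0531). Without unmasked control replicate 2 the Pola1 call was lost, at -0.18 and an edgeR adjusted p of 0.0751. Its partner Pola2 passed with mXTX301 at day 7, at -0.23, and not with the unmasked control, at -0.14 (edgeR adjusted p = 0.0646), and neither gene passed in the direct test of the drugs.

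Pole, the leading-strand polymerase, was at 119, 115, 116, 142 and 134 CPM in vehicle, 111, 123, 114, 106 and 103 CPM in mXTX301 and 123, 101, 123, 111 and 99.8 CPM in the unmasked control at day 7. The groups overlapped and it did not pass, at -0.17 (SE 0.09, edgeR adjusted p = 0.115) and -0.17 (SE 0.09, edgeR adjusted p = 0.129). At day 4 both estimates for Pole lay above 0, at 0.13 and 0.10, with edgeR adjusted p of 0.266 and 0.447. Pold1, of the lagging-strand polymerase, had log2 fold changes between -0.12 and -0.06 in the 4 drug comparisons and passed in none.

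Genes of the clamp, its loader and Okazaki fragment joining all fell at day 7, 8 of 8 with each drug. At day 4 7 fell with mXTX301 and 3 with the unmasked control. Pcna, the sliding clamp that holds polymerases on DNA (gene 18538, chr2:132249162-132253314, minus strand of mm10), was at 299, 353, 289, 295 and 276 CPM in vehicle at day 7. It stood at 219, 215, 223, 219.9 and 217 CPM in mXTX301, a narrow range, and at 244, 224, 258, 223 and 233 CPM in the unmasked control. Neither treated group reached the lowest vehicle library. The falls were 0.47 (SE 0.08, edgeR adjusted p = 4.14e-05) and 0.36 (SE 0.08, edgeR adjusted p = 0.00088). At day 4 Pcna was at 284, 274, 290.2, 305 and 396 CPM in vehicle, 292, 225, 242, 230.2 and 238 CPM in mXTX301 and 272, 248, 274, 276 and 269 CPM in the unmasked control. It passed with mXTX301, at -0.34 (SE 0.08, edgeR adjusted p = 0.00253), and not with the unmasked control, at -0.21 (SE 0.08, edgeR adjusted p = 0.0607). Pcna and Tyms have annotated pseudogene copies, between which reads could have been split.

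Rpa2, a subunit of the protein that coats single-stranded DNA, kept its 4 calls under every alternative setting tried. At day 4 it was at 74.7, 72.6, 83.1, 72.7 and 82.2 CPM in vehicle, 61.0, 55.0, 56.7, 56.5 and 54.4 CPM in mXTX301 and 67.9, 57.0, 64.6, 64.0 and 60.3 CPM in the unmasked control, with no overlap between vehicle and either drug. It fell by 0.44 (SE 0.06, edgeR adjusted p = 1.66e-05) and 0.30 (SE 0.06, edgeR adjusted p = 0.00141). At day 7 the levels were 75.6, 80.1, 69.5, 79.4 and 68.3 CPM in vehicle, 48.01, 53.1, 55.9, 45.4 and 50.9 CPM in mXTX301 and 57.8, 48.4, 55.5, 52.5 and 50.4 CPM in the unmasked control, and the falls were 0.56 and 0.49. Fen1, the nuclease that trims Okazaki fragments, fell by 0.61 (SE 0.07, edgeR adjusted p = 3.25e-07) with mXTX301 and 0.50 (SE 0.07, edgeR adjusted p = 5.62e-06) with the unmasked control at day 7. Its levels there were 117, 136, 103, 112 and 99.8 CPM in vehicle, 76.0, 74.6, 82.1, 68.6 and 70.6 CPM in mXTX301 and 88.6, 72.2, 84.6, 74.6 and 81.1 CPM in the unmasked control, again without overlap. Fen1 also fell at day 4, by 0.29 with mXTX301 and 0.22 with the unmasked control. The latter call was lost without vehicle replicate 3 or unmasked control replicates 2 or 3, with edgeR adjusted p between 0.0556 and 0.111.

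Of the clamp loader, Rfc3 was at 128, 124, 107, 125 and 117 CPM in vehicle, 88.6, 94.4, 98.1, 84.99 and 83.7 CPM in mXTX301 and 101, 86.5, 98.5, 85.6 and 79.1 CPM in the unmasked control at day 7. It fell by 0.42 (SE 0.07, edgeR adjusted p = 1.81e-05) and 0.42 (SE 0.07, edgeR adjusted p = 2.28e-05). The other loader subunits Rfc2, Rfc4 and Rfc5 fell by 0.21, 0.21 and 0.30 with mXTX301 and by 0.34, 0.37 and 0.42 with the unmasked control. The Rfc4 call with mXTX301 was lost without mXTX301 replicate 3, at -0.19 and an edgeR adjusted p of 0.0521. Lig1, the ligase that seals fragments, fell at day 7 by 0.23 and 0.26, while at day 4 it was at -0.11 and 0.09, without passing.

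**Figure D3:**
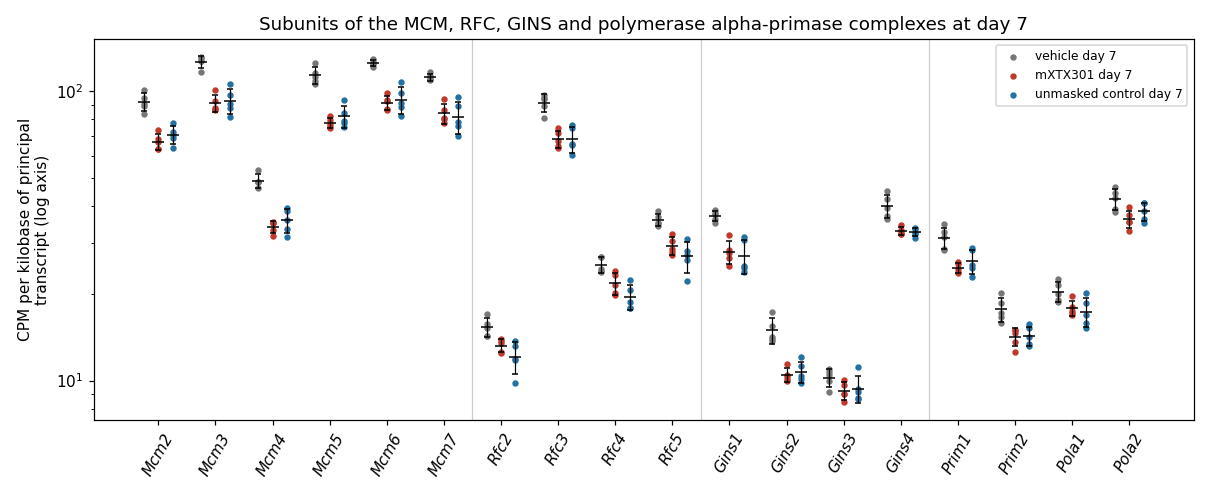
Level per kilobase of principal transcript (CPM per kilobase, log axis) of the subunits of 4 complexes at day 7, with each library as a point and the mean and 1 SD of 5 libraries in black. All 6 Mcm subunits lie lower in both drug groups than in vehicle, without overlap. Gins3, Pola1 and Pola2 overlap vehicle in both drug groups, Rfc4 with mXTX301 and Prim1 with the unmasked control. By mean level per kilobase, Mcm4 lies lowest in its ring and Rfc2 lowest of the clamp loader subunits shown in every group. The rank of Rfc2 depends on the length taken, 4995 bases against 1228 for Rfc4, and in CPM Rfc2 lies above Rfc4.

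Per kilobase of principal transcript, levels differed widely between genes at day 7 of vehicle. Pcna was highest at 199 ± 19.4 CPM per kilobase, followed by Rrm2 at 176 ± 13.9 CPM per kilobase, and the libraries of the pair overlapped. Gins3 was lowest at 10.2 ± 0.73 CPM per kilobase. Within the Mcm ring, Mcm4 stood at 49.1 ± 2.58 CPM per kilobase and Mcm3 at 126 ± 5.82 (SD, n = 5). At day 7 of mXTX301 these were 34.1 ± 1.61 and 91.0 ± 6.28 CPM per kilobase, so the order of the 2 subunits was the same as in vehicle. These values depend on the transcript taken for each gene's length.

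All 4 genes of deoxynucleotide supply fell at day 7 in both drug comparisons and at day 4 of mXTX301, while 1 fell at day 4 of the unmasked control. Tyms, thymidylate synthase (gene 22171, chr5:30058202-30073617, minus strand of mm10), was at 60.6, 60.5, 57.3, 56.7 and 65.2 CPM in vehicle at day 4. It was at 46.8, 44.0, 42.6, 40.1 and 39.96 CPM in mXTX301 and 51.1, 37.6, 47.3, 43.1 and 39.9 CPM in the unmasked control, with no overlap of either with vehicle. It fell by 0.49 (SE 0.09, edgeR adjusted p = 0.000312) and 0.46 (SE 0.09, edgeR adjusted p = 0.000902). By day 7 the levels were 63.0, 60.5, 53.7, 56.4 and 53.1 CPM in vehicle, 35.6, 41.6, 39.3, 38.9 and 30.1 CPM in mXTX301 and 40.8, 37.1, 41.6, 35.6 and 28.5 CPM in the unmasked control. The falls were 0.63 (SE 0.09, edgeR adjusted p = 5.96e-06) and 0.64 (SE 0.09, edgeR adjusted p = 5.21e-06).

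Ribonucleotide reductase makes deoxynucleotides from a large subunit, Rrm1, and a small one, Rrm2. Rrm2 was at 346, 377, 377, 423 and 409 CPM in vehicle at day 7, 237, 270.3, 256, 212 and 234 CPM in mXTX301 and 309, 261, 292, 239.6 and 267 CPM in the unmasked control. The groups were apart, with falls of 0.68 (SE 0.09, edgeR adjusted p = 1.2e-06) and 0.50 (SE 0.09, edgeR adjusted p = 6.46e-05). Rrm1 ranged over 254 to 333 CPM in vehicle, 165 to 202 CPM in mXTX301 and 185 to 217 CPM in the unmasked control at day 7, and fell by 0.61 and 0.50. At day 4 Rrm1 and Rrm2 fell with mXTX301, by 0.21 and 0.31, and stood at -0.12 and -0.16 with the unmasked control, not called. The Rrm1 call at day 4 did not survive leaving out mXTX301 replicate 2, 4 or 5 or vehicle replicate 5, with edgeR adjusted p between 0.0501 and 0.0873. Tk1, the thymidine salvage kinase, was at 146, 189, 112, 125 and 109 CPM in vehicle at day 7, 88.1, 92.2, 101, 88.6 and 89.3 CPM in mXTX301 and 102, 83.9, 100.44, 85.6 and 93.6 CPM in the unmasked control. Its vehicle libraries varied the most of the 4 genes, and its falls were 0.57 (SE 0.13, edgeR adjusted p = 0.000557) and 0.55 (SE 0.13, edgeR adjusted p = 0.000893).

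The 3 genes that copy chromatin marks and rebuild nucleosomes behind the fork all fell at day 7 in both drug comparisons, and 1 fell at day 4 in each. Uhrf1, which brings the maintenance methyltransferase to newly made DNA, was at 278, 293, 261, 296 and 262 CPM in vehicle at day 7. It was at 205, 233, 240.3, 191 and 195 CPM in mXTX301 and 245, 222, 248, 209 and 231 CPM in the unmasked control, all below vehicle, with falls of 0.39 (SE 0.07, edgeR adjusted p = 4.41e-05) and 0.27 (SE 0.07, edgeR adjusted p = 0.00206). At day 4 Uhrf1 passed with the unmasked control, at -0.20 (edgeR adjusted p = 0.029), and not with mXTX301, at -0.14 (edgeR adjusted p = 0.118). That call was lost without any 1 of vehicle replicates 1 to 4 or unmasked control replicates 2 or 5, with edgeR adjusted p between 0.0508 and 0.0889. Chaf1b, a subunit of the chromatin assembly factor, was at 57.5, 64.5, 51.1, 56.5 and 54.2 CPM in vehicle, 42.7, 41.7, 43.3, 41.6 and 42.2 CPM in mXTX301 and 46.3, 37.2, 45.3, 40.8 and 35.0 CPM in the unmasked control at day 7. It fell by 0.42 (SE 0.08, edgeR adjusted p = 6.26e-05) and 0.47 (SE 0.08, edgeR adjusted p = 1.98e-05). Its partner Chaf1a fell by 0.36 and 0.26, with 52.5% of its exon bases shared with Ubxn6.

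Of the 3 regulators of the G1 to S transition, Ccne2 fell, and Ccne1 and E2f1 did not pass. Ccne2, cyclin E2 (gene 12448, chr4:11191351-11204779, plus strand of mm10), had the largest fall of all 40 members at day 7 in both drug comparisons. Vehicle was at 51.8, 68.1, 44.1, 51.6 and 41.3 CPM, mXTX301 at 26.8, 25.9, 26.9, 26.8 and 23.3 CPM and the unmasked control at 33.5, 27.9, 34.3, 27.9 and 31.4 CPM. Both drug groups lay below vehicle, and mXTX301 below the unmasked control. The falls against vehicle were 0.99 (SE 0.15, edgeR adjusted p = 7.5e-06) and 0.73 (SE 0.15, edgeR adjusted p = 0.000271), or 49.5% and 39.7% below vehicle by the fitted fold change. The day 7 call with the unmasked control was lost without the 12 libraries with high skin genes. At day 4 Ccne2 was at 40.4, 40.6, 45.4, 46.2 and 77.3 CPM in vehicle, 40.9, 33.6, 35.7, 33.0 and 31.9 CPM in mXTX301 and 41.3, 27.0, 36.2, 42.6 and 38.9 CPM in the unmasked control. Both passed, at -0.51 (SE 0.15, edgeR adjusted p = 0.00943) and -0.43 (SE 0.15, edgeR adjusted p = 0.0375), and both calls rested on vehicle replicate 5. Without it they were -0.31 with an edgeR adjusted p of 0.0641 and -0.21 with 0.211. The unmasked control call was also lost without its own replicate 2, 3 or 5, with edgeR adjusted p between 0.0542 and 0.123.

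Ccne1, cyclin E1, which activates the same kinase, was at 49.1, 46.4, 39.5, 50.3 and 44.4 CPM in vehicle, 45.3, 42.3, 44.6, 32.4 and 37.2 CPM in mXTX301 and 47.3, 40.2, 48.3, 41.1 and 30.4 CPM in the unmasked control at day 7. The groups overlapped, at -0.19 (SE 0.10, edgeR adjusted p = 0.134) and -0.15 (SE 0.10, edgeR adjusted p = 0.245). The log2 ratio of Ccne2 to Ccne1, a measure chosen after the values of both were seen, was 0.14 ± 0.25 in vehicle at day 7, -0.63 ± 0.20 in mXTX301 and -0.41 ± 0.25 in the unmasked control (SD, n = 5). Its difference from vehicle at day 7 was -0.77 in mXTX301 and -0.55 in the unmasked control, given as a description with no test, since Ccne2 was taken for its fall and Ccne1 for not passing. At day 4 the difference from vehicle was -0.55 in mXTX301 and -0.56 in the unmasked control, and without vehicle replicate 5, whose own ratio was 0.86, these were -0.36 and -0.37.

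E2f1 did not pass in any drug comparison. It was at 106, 91.3, 114, 105 and 110.1 CPM in vehicle, 106, 116, 108, 108 and 109.6 CPM in mXTX301 and 118, 106, 106, 101 and 93.8 CPM in the unmasked control at day 7. The log2 fold changes were 0.06 (SE 0.07, edgeR adjusted p = 0.552) and -0.01 (SE 0.07, edgeR adjusted p = 0.951) at day 7, and -0.10 and -0.05 at day 4, with edgeR adjusted p of 0.31 and 0.678. In all, 8 members passed in no drug comparison: Cdt1, Cdc7, Dbf4, Gins3, Pold1, Pole, Ccne1 and E2f1. The comparisons of a day share their vehicle libraries, so this is a count of tests and not of independent trials.

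Within each drug, the calls of day 4 were contained in those of day 7. All 24 members called at day 4 of mXTX301 were called again at day 7, where they made up 24 of 31, and all 11 of the unmasked control were among its 31. By estimate the fall was larger at day 7 in 36 of 40 members for mXTX301 and in 38 for the unmasked control. The change of the drug effect between days passed for 3 members with mXTX301, where 3.04% of all genes were called in that direction. These were Mcm4, at -0.33 (SE 0.09, edgeR adjusted p = 0.039), Mcm5, at -0.29 (SE 0.09, edgeR adjusted p = 0.0459), and Rrm1, at -0.40 (SE 0.10, edgeR adjusted p = 0.0299). For the unmasked control 3 members passed, against 2.2% of all genes. They were Mcm5, at -0.31 (SE 0.09, edgeR adjusted p = 0.0388), Lig1, at -0.35 (SE 0.10, edgeR adjusted p = 0.0441), and Rrm1, at -0.37 (SE 0.10, edgeR adjusted p = 0.0374). The other members did not pass in either test, which does not show that their effects were equal at both days. Both counts rested on single libraries. Leaving out 1 library at a time gave between 0 and 6 calls for mXTX301, with 0 without replicate 1 of vehicle day 4, replicate 4 of vehicle day 7, replicate 1 of mXTX301 day 4 or replicate 4 or 5 of mXTX301 day 7. For the unmasked control it gave between 0 and 19, with 19 without vehicle day 4 replicate 5 and 15 without unmasked control day 7 replicate 1. The genes called in either direction over the whole table moved as well, from 798 to 3025 and 2074 in those fits. It gave 0 without replicate 1, 2 or 3 of vehicle day 4, replicate 2 or 4 of vehicle day 7, replicate 1, 3 or 4 of the unmasked control at day 4, or replicate 2, 4 or 5 at day 7, where between 132 and 506 genes were called over the whole table.

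In vehicle tumours no member passed between day 7 and day 4 (edgeR, with 2 lower and 0 higher at an unadjusted p under 0.05, and 0 with DESeq2), where 0.0388% of all genes were called. The median log2 fold change of the members was 0.02, with a median SE of 0.07. Rfc4 and E2f1 were the 2 with an unadjusted p under 0.05, at -0.20 and -0.19. An unadjusted edgeR p under 0.05 was found for 2932 of all genes, so 2 of 40 members is no more than that share.

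Set against each other at their own doses, no member passed between the drugs. At day 4 edgeR called 0 of 40 members and 0% of all genes, with 5 members at an unadjusted p under 0.05 and 0 called by DESeq2. An unadjusted edgeR p under 0.05 was found for 2092 of all genes at day 4, so 5 of 40 members is no more than that share. At day 7 edgeR again called 0 members and 0% of all genes, with 2 members, Rfc4 at 0.16 and Cdc6 at -0.20, at an unadjusted p under 0.05 and 0 by DESeq2. Of all genes, 898 had an unadjusted edgeR p under 0.05 at that day, so 2 of 40 members is again no more than that share. The median difference over the members was -0.06 at day 4 and -0.03 at day 7, with a median SE of 0.07 per member, which does not show that the drugs act alike. At day 4 the 5 were Cdc7, at 0.24 (SE 0.09), Rfc4, at -0.17, Lig1, at -0.20, Rpa2, at -0.15, and Chaf1b, at -0.18, with mXTX301 minus the unmasked control as the sign. Cdc7 libraries were at 54.8, 54.4, 49.1, 54.2 and 55.4 CPM in mXTX301 and 48.9, 45.4, 42.6, 44.8 and 45.8 CPM in the unmasked control at day 4, a complete separation that 2.4% of all genes showed in that direction, and vehicle, at 47.7, 52.6, 52.5, 55.5 and 34.3 CPM, spanned both. At day 7 Ccne2 was the member with separate groups, at -0.26 (SE 0.15, edgeR adjusted p = 0.871), where 0.782% of all genes were lower without overlap.

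Other genes of the same pathways, from lists that hold no member, fell as well. These lists, like the members, were chosen with earlier results of these data known, so they are no independent check. Among all genes tested, 16% and 22.7% were called lower with mXTX301 at days 4 and 7, and 10.8% and 21.8% with the unmasked control. Of 15 other licensing and firing genes, 5 fell at day 4 and 10 at day 7 of mXTX301, and 5 and 7 in the unmasked control, with none higher. The median log2 fold change of that list at day 7 was -0.32 and -0.23. Orc1, the largest subunit of the origin recognition complex, fell by 0.75 (SE 0.09, edgeR adjusted p = 4.7e-07) at day 7 of mXTX301. Gmnn, which encodes geminin, the inhibitor of Cdt1, fell by 0.59 (SE 0.09, edgeR adjusted p = 4.73e-06) there, whereas Cdt1 did not pass. Of 23 other replisome genes, 8 and 16 fell with mXTX301 and 7 and 17 with the unmasked control at days 4 and 7, with day 7 medians of -0.37 and -0.29. Tipin, of the fork protection complex, fell by 0.56 (SE 0.07, edgeR adjusted p = 3.5e-07) and 0.57 (SE 0.07, edgeR adjusted p = 3.42e-07) at day 7. Pold4, a small subunit of polymerase delta, rose at day 7, by 0.45 and 0.50, and is named because it was the 1 riser of the list.

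Among 12 other genes of nucleotide supply, 6 and 8 fell with mXTX301 and 5 and 9 with the unmasked control, and 1 rose in each comparison. The day 7 medians were -0.35 and -0.33. Dck, a kinase that salvages deoxycytidine, fell by 0.52 (SE 0.08, edgeR adjusted p = 9.53e-06) at day 7 of mXTX301. The riser was Samhd1, an interferon-inducible enzyme that breaks deoxynucleotides down, by 0.73 and 0.89 with mXTX301 and by 0.61 and 0.79 with the unmasked control (edgeR adjusted p = 2.35e-05, 4.3e-07, 0.000211 and 2.49e-06). Of 12 other genes of chromatin copying, 8 and 11 fell with mXTX301 and 4 and 9 with the unmasked control, with day 7 medians of -0.43 and -0.33. Asf1b, a histone chaperone, fell by 0.73 and 0.66 at day 7, and Slbp, which binds histone messages, by 0.71 and 0.67.

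Among 22 other regulators of the G1 to S transition, 5 fell and 2 rose at day 4 of mXTX301 and 12 fell and 1 rose at day 7. With the unmasked control 2 fell and 2 rose at day 4, and 11 fell and 1 rose at day 7, with day 7 medians of -0.24 and -0.19 for the drugs in that order. With mXTX301, 16% of all genes were lower and 16.2% higher at day 4, and 22.7% and 25.7% at day 7. At day 4 of the unmasked control neither count exceeds the share of all genes, 10.8% lower and 11.6% higher. The day 7 shares there were 21.8% and 23.2%, and in no comparison did risers exceed the share of all genes. Skp2, which targets a cyclin-dependent kinase inhibitor for destruction, fell by 0.75 (SE 0.08, edgeR adjusted p = 8.67e-08) at day 7 of mXTX301, and Ccna2, cyclin A2, by 0.48 (SE 0.06, edgeR adjusted p = 1.22e-06). Rb1, the retinoblastoma protein that restrains E2F, rose in all 4, by 0.39 and 0.66 with mXTX301 and 0.45 and 0.60 with the unmasked control. Its relative Rbl2 rose at day 4, by 0.37 and 0.38. 

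Cyclin-dependent kinase inhibitors, which block entry into S phase, showed no common direction among 7 genes. Cdkn1a, which encodes p21, fell at day 4, by 0.40 (SE 0.11, edgeR adjusted p = 0.00624) and 0.45 (SE 0.11, edgeR adjusted p = 0.00364), and at day 7 it did not pass, at 0.23 and 0.26. Cdkn2d fell at day 4 of mXTX301, by 0.33, and Cdkn1b at day 7, by 0.33. Cdkn2c fell at day 7, by 0.74 and 0.72, and Cdkn1c, present at a low level, rose by 2.15 and 1.92. Genes of G2 phase and mitosis, a list of 28, fell in 13 and 28 members with mXTX301 and in 6 and 25 with the unmasked control, with day 7 medians of -0.43 and -0.42. The shares of all genes called lower were 16% and 22.7% with mXTX301 and 10.8% and 21.8% with the unmasked control. Plk1, a mitotic kinase, fell by 0.72 and 0.58 at day 7.

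Immune cell markers rose in the same libraries. Among all genes tested, 16.2% and 25.7% were called higher with mXTX301 at days 4 and 7, and 11.6% and 23.2% with the unmasked control. T cell genes tested numbered 15, of which 13 and 15 rose with mXTX301 at days 4 and 7 and 12 and 15 with the unmasked control, and none of the 15 was at 0 in all libraries. Their summed level ran over 37.5 to 54.4 CPM in vehicle, 61.9 to 220.3 CPM in mXTX301 and 61.4 to 121 CPM in the unmasked control at day 4. At day 7 it ran over 32.8 to 47.2, 120.2 to 265 and 109 to 317 CPM in the same order. Of 14 macrophage and monocyte genes, 10 and 14 rose with mXTX301 and 3 and 12 with the unmasked control. Their summed level at day 4 was 702 to 1051 CPM in vehicle, 940.4 to 2374 CPM in mXTX301 and 1069 to 1706 CPM in the unmasked control. At day 7 it was 516 to 1309, 2235 to 4896 and 1434 to 4379.8 CPM. NK cell genes rose in 7 and 4 of 9 tested with mXTX301 and in 7 and 5 with the unmasked control. Their summed level was 23.3 to 55.3 CPM in vehicle, 46.8 to 93.5 CPM in mXTX301 and 59.99 to 116 CPM in the unmasked control at day 7.

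Other stroma moved less evenly. Of 14 endothelial genes 8 fell at day 4 of mXTX301 and 11 at day 4 of the unmasked control, where 16% and 10.8% of all genes fell. At day 7 of mXTX301 2 rose and none fell, which is no more than the 25.7% of all genes that rose. With the unmasked control 0 were called at day 7. At day 7 of mXTX301 6 of 12 fibroblast and collagen genes were called higher and 2 lower, against 25.7% and 22.7% of all genes. With the unmasked control 2 were called higher and 1 lower at that day, against 23.2% and 21.8% of all genes. Thy1 stands in both this list and the T cell list, and it is among those called higher with each drug at day 7. The part of these cell types in the fall of the replication genes was not tested. The members' mean log2 CPM was 6.75 ± 0.06 in vehicle at day 7, 6.39 ± 0.07 in mXTX301 and 6.41 ± 0.12 in the unmasked control (SD, n = 5). At day 4 it was 6.75 ± 0.03, 6.56 ± 0.08 and 6.62 ± 0.07. In each of the 4 treated groups the library with the highest member level had the lowest T cell level, and in 3 of the 4, all but mXTX301 at day 7, also the lowest macrophage level. In mXTX301 at day 4 replicate 1 had a member level of 6.70 with macrophage and T cell levels of 5.74 and 1.26. In the unmasked control at day 7 replicate 1 had a member level of 6.57, with 6.05 and 2.19. In the vehicle groups the library with the highest member level was not the one with the lowest T cell level.

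**Figure D4:**
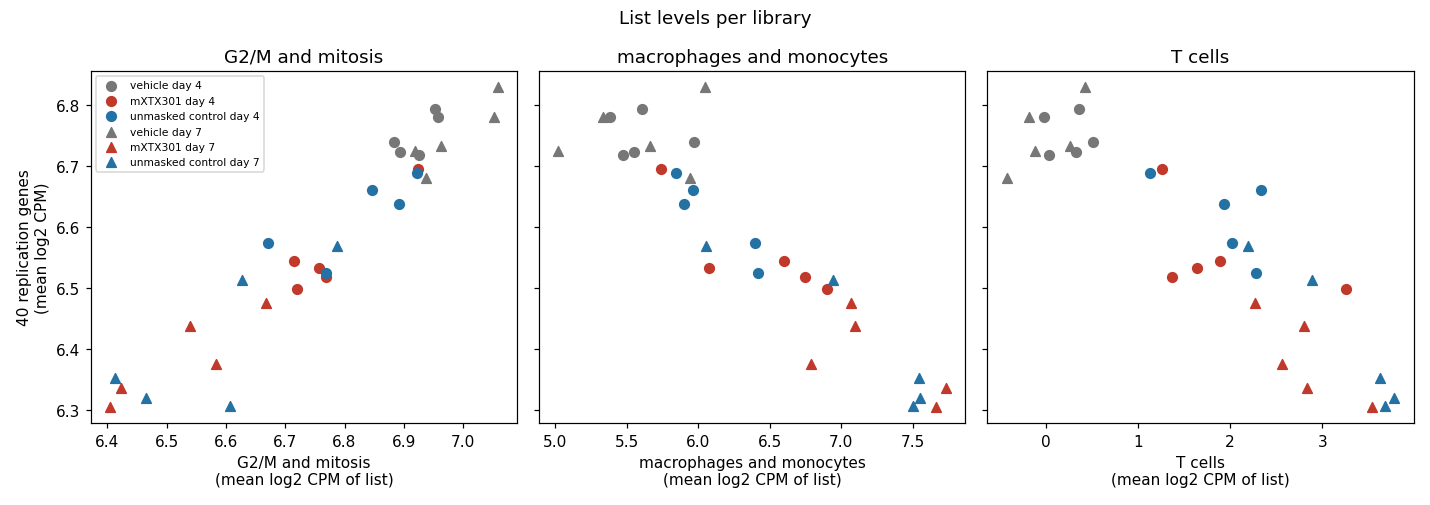
Mean log2 CPM of the 40 replication genes in each of the 30 libraries (vertical axis) against the mean log2 CPM of the mitotic, macrophage and T cell lists (horizontal axes), coloured by treatment, with circles for day 4 and triangles for day 7. The vehicle libraries sit near the top at the lowest T cell levels, and the day 7 drug libraries near the bottom, with unmasked control day 7 replicate 1 at 6.57 the highest of its group.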

How the data were processed

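Polyadenylated RNA of 30 whole MC38 tumours was sequenced, 5 libraries per treatment and day. The authors deposited raw counts per gene, and their processing notes name mm10. Per the submitters' processing notes, HTSeq 0.11.1 and STAR 2.7.10a were among the tools. Their deposited table of log2 values was not used. Here 5 repeated symbols were dropped and 24552 entries kept. Counts were scaled with TMM and tested with edgeR 4.0.16 (R 4.3.3, limma 3.58.1), as a quasi-likelihood fit with 1 mean per group over 30 libraries and 24 residual degrees of freedom. The filter for low counts left 15482 genes, over which p-values were adjusted by Benjamini and Hochberg, with calls at 0.05. CPM values use the TMM library sizes, and list levels are mean log2 CPM with a prior count of 2. Alternatives were DESeq2 1.42.0, its size factors, no filter, a replicate block, a skin gene covariate, only the groups compared, and leaving out libraries. The labels give 1 mouse per library.

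The members and gene lists were chosen with earlier results of these data known. Genes named are those standing for each role, the 3 largest falls per comparison and those with the smallest p in each other list. Coordinates are from GENCODE M21 (GRCm38).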

Additional observations from a re-analysis of the deposited data

Results flagged for a closer look

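Among 19 genes described in full, 7 of 114 groups of 5 libraries had a single library farther from the rest than Dixon's test allows at the 95% level, and chance gives about 1 in 20. Of these, 4 were vehicle day 4 replicate 5, which was the highest of its group for Gins2 at 75.6 CPM, Pcna at 396.1 CPM, Tk1 at 170.1 CPM and Ccne2 at 77.3 CPM. Pcna was also set apart in mXTX301 day 4 replicate 1, the highest of its group at 291.6 CPM, and in unmasked control day 4 replicate 2, the lowest of its group at 248.3 CPM. Ccne2 in mXTX301 day 7 replicate 5, at 23.3 CPM, was the lowest of its group.

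The drug effect differed between day 7 and day 4 in the edgeR test of the difference for Mcm4 (-0.33), Mcm5 (-0.29) and Rrm1 (-0.40) with mXTX301, and for Mcm5 (-0.31), Lig1 (-0.35) and Rrm1 (-0.37) with the unmasked control, on the log2 scale. When 1 of the 20 libraries was left out in turn, the edgeR adjusted p of Rrm1 ran from 0.0142 to 0.0718 with mXTX301 and from 0.00956 to 0.0770 with the unmasked control. The Rrm1 calls were lost in 6 and 11 of the 20 fits, in the same order, and those of Mcm5 in 12 and 11. The call of Mcm4 with mXTX301 was lost in 7, and that of Lig1 with the unmasked control in 13.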

How the results depend on the processing

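The counts of members that fell were within 1.5 times of 24, 31, 11 and 31 under most alternatives, and no called member reversed direction. Members called in the drug comparisons and effect tests were recomputed 1914 times, and the call was kept in 1744 and lost in 170. DESeq2 gave 8 and 10 members for the change of the mXTX301 and unmasked control effects between days, in place of 3 and 3, and called 1474 of 13376 and 1669 of 15475 genes in either direction, in place of 772 and 798 of 15482. With no filter on low counts the unmasked control effect had 1, where 473 of 20790 genes were called in either direction. With only the groups compared in the fit, 1 member was higher with mXTX301 than with the unmasked control at day 4, where 194 of 14328 genes were called. The unmasked control effect had 0 in its fit, where 287 of 15170 genes were called. Without the 12 libraries above the largest gap in skin gene level, the unmasked control counts were 2 at day 4, 14 at day 7 and 0 for its effect, with 1618, 2415 and 0 of 15412 genes called. The mXTX301 counts were 17 at day 4 and 27 at day 7, with 3530 and 5285 genes called. An alternative without the 8 above the second gap was chosen after seeing the data. There the unmasked control counts were 5 at day 4 and 0 for its effect, and the mXTX301 effect had 6. In that fit 2759, 125 and 1383 of 15336 genes were called in either direction, in the same order. Leaving out 1 library at a time gave 22 to 25 and 30 to 33 members for mXTX301 at days 4 and 7, 6 to 12 and 29 to 33 for the unmasked control, 0 to 0 between the drugs at each day and in vehicle over time, 0 to 6 for the mXTX301 effect and 0 to 19 for the unmasked control effect. The cause of these shifts was not tested.

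Replicate numbers are shared between groups, and the fit of all results treats the libraries as unpaired. Deviations of 75 same-numbered pairs correlated at 0.0465 on average, with 35 above 0.1, against -0.0042 on average for other pairs. Of 30 libraries, 9 correlated best with their own number. No chance level was set for these values, so they cannot exclude pairing. With the replicate block 24, 32, 10 and 31 members fell in the 4 drug comparisons, 0 differed between the drugs at either day or in vehicle over time, and 3 and 2 passed for the effects. Of 15482 genes, 4865, 7419, 3415 and 6947 were called in either direction in the drug comparisons, and 866 and 698 for the effects. For vehicle over time 86 were called, in place of 6. Under the block 3 calls were lost: Ccne2 with the unmasked control at day 4 (edgeR adjusted p = 0.0548), Mcm5 in the mXTX301 effect (edgeR adjusted p = 0.0534) and Lig1 in the unmasked control effect (edgeR adjusted p = 0.0584).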
